A study of Mus musculus with 15 samples.

Results

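Cyclin-dependent kinase inhibitors are small proteins that bind cyclin-dependent kinases and hold the cell division cycle. The CIP/KIP family, Cdkn1a (p21), Cdkn1b (p27) and Cdkn1c (p57), binds complexes of several cyclins with their kinases, while the INK4 family, Cdkn2a (p16INK4a), Cdkn2b (p15), Cdkn2c (p18) and Cdkn2d (p19), binds CDK4 and CDK6 and keeps them from the D-type cyclins. Cdkn2a also encodes p19ARF, an inhibitor of the p53 ligase MDM2, from a separate start and another reading frame. In blood-forming cells p21 is a direct target of p53, the factor that short telomeres activate, Cdkn1c and Cdkn1b are known from quiescent stem cells, and Cdkn2a is known from senescent cells. The genes were taken by name, and all 7 of 7 were found among the 45706 genes of the count table and passed the filter on low counts, which 18983 genes passed.

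The study asked how the loss of PUMA, a pro-apoptotic protein encoded by Bbc3 and induced by p53, acts in blood formation without telomerase. mRNA was sequenced from lineage-negative femoral marrow cells, enriched on magnetic beads, in 3 WT, 4 Puma-/-, 4 G3 mTerc-/-Puma+/+ and 4 G3 mTerc-/-Puma-/- libraries. Every library, controls included, came from secondary recipients, that is, lethally irradiated CD45.1 mice that received LSK (lineage-negative, Sca-1+, c-Kit+) stem and progenitor cells by serial transplantation from C57BL/6J donors with germline deletions. mTerc-/- lacks the telomerase RNA gene Terc, G3 is the third generation bred without it, and Puma-/- lacks Bbc3. No sort by CD45.2 is described for these cells, so host cells may remain, and in such bulk RNA fewer cells of a type and less RNA per cell cannot be told apart. No label ties the libraries to separate recipients, so p-values measure the spread between libraries, and whether each library is a separate recipient is not known.

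The libraries held 102790519 to 158367059 counts, and the WT, Puma-/- and G3 mTerc-/-Puma+/+ libraries matched their labels in Terc and Bbc3. Terc gave 4 to 17 counts in mTerc+/+ libraries and 0 or 1 in mTerc-/- libraries. Bbc3 lay at 5.03 to 6.77 normalized CPM (a gene's reads relative to the total of its library, after TMM scaling) in Puma-/- and at 13.7 to 17.3 CPM in those with the G3 mTerc-/-Puma-/- label, inside the 9.76 to 23.6 CPM of WT. Since Bbc3 was not low there, these libraries are called the labelled double mutant throughout, and every direction drawn from them rests on the label. The Puma-/- libraries still held 557 to 768 Bbc3 counts, so the level of Bbc3 alone does not settle the label. Replicate 2 of that label stood apart, with a median correlation of 0.953 with its own group against 0.981 to 0.988 in the other 14 libraries, and an erythroid marker sum of 2355 CPM against 223 to 526 CPM elsewhere. It also seems not to be drawn in the study's heatmaps, though the study's methods state that no data were excluded. The fits used 14 libraries, and values over all 15 libraries are given beside them. Sex-linked genes differed with genotype. Xist lay at 464 to 861 CPM in Puma-/- and at 0.174 to 89.4 CPM in G3 mTerc-/-Puma+/+. The Y-linked Ddx3y lay at 0.0176 to 0.0446 and 43.5 to 48.4 CPM there. Some libraries held both, such as WT replicate 1 with Xist at 419 and Ddx3y at 21.4 CPM, and the source of this mixture was not tested. Xist ran from 1.73 to 419 CPM within WT and from 0.388 to 669 CPM within the labelled double mutant, so libraries of these groups differed in their mixture of sexes.

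The 7 inhibitors fell into an abundant and a scarce set (plot of the level per kilobase). As medians of normalized CPM per kilobase of annotated exon over 14 libraries, Cdkn2d stood at 41.7, Cdkn2c at 26.3, Cdkn1a at 13.8 and Cdkn1b at 13.1. Cdkn1c stood at 0.543, Cdkn2a at 0.324 and Cdkn2b at 0.131. The order was the same over 15 libraries and with the length of the longest transcript. Neighbours in this order overlapped over the libraries with the exception of Cdkn1b and Cdkn1c, whose ranges were 11.1 to 17.7 and 0.403 to 0.785 CPM per kilobase. The coefficient of variation over 14 libraries was 13.7% for Cdkn2d, 13.8% for Cdkn1b, 16.2% for Cdkn2c and 22.2% for Cdkn1c. It was 52.4% for Cdkn2b, 54.8% for Cdkn1a and 88.3% for Cdkn2a, so among the abundant members only Cdkn1a varied widely.

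**Figure D1:**
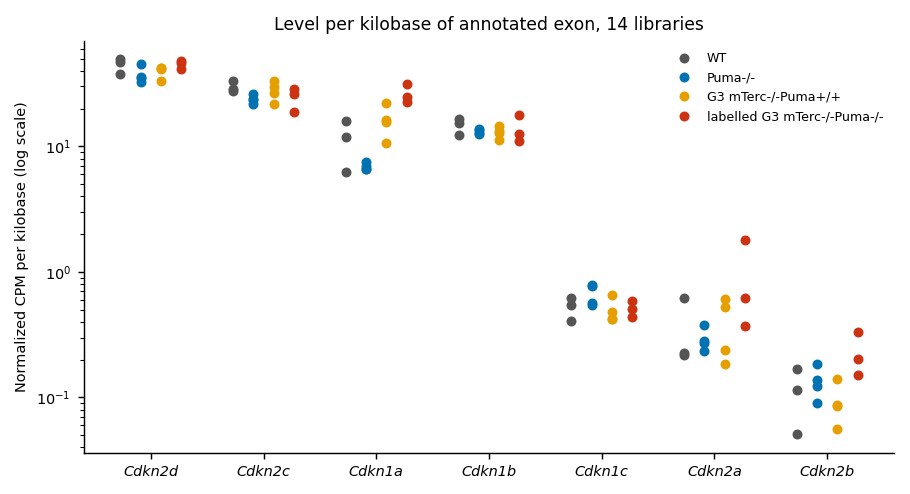
Normalized CPM per kilobase of annotated exon (log scale) of each inhibitor, 1 point per library in 14 libraries, coloured by genotype label, members ordered by their median. Cdkn2d, Cdkn2c, Cdkn1a and Cdkn1b lie above 6 and Cdkn1c, Cdkn2a and Cdkn2b below 2 CPM per kilobase in every library shown.

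Cdkn1a was the only inhibitor whose transcript was called different between genotypes. With called meaning an edgeR p, adjusted by Benjamini-Hochberg over all genes, under 0.05, it was called in 4 of the 9 comparisons, in 3 of them as higher in the group without telomerase and in the test of any difference, which has no direction. These 3 all use the same Puma-/- libraries and are not separate evidence. In one of them, G3 mTerc-/-Puma+/+ against Puma-/-, the groups differ in both mTerc and Puma. The other 6 members were called in none. Against Puma-/-, 1 of 7 members passed an edgeR adjusted p of 0.05 in G3 mTerc-/-Puma+/+, where 0.801% of all genes did, and 1 of 7 in the labelled double mutant, where 0.306% did. That member was Cdkn1a in both. It was also the 1 called when the mTerc-/- groups were set against the mTerc+/+ groups, averaged over Puma (0.263% of all genes), and in the test of any genotype difference (0.448% of all genes).

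The remaining comparisons gave 0 called members by edgeR. This held for Puma-/- against WT (0.079% of all genes called), G3 mTerc-/-Puma+/+ against WT (0.0369%) and the labelled double mutant against WT (0.0632%). It held as well between the groups without telomerase (0.0738%) and for the interaction of mTerc with Puma (0.0527%). limma-voom also called 0 members in these 5, and DESeq2 called Cdkn1a in the labelled double mutant against WT and in the interaction and 0 members in the other 3.

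At an unadjusted p of 0.05 by edgeR, the members' counts were 2 of 7 in Puma-/- against WT (Cdkn1a and Cdkn2c, where 10.1% of all genes passed), 0 in G3 mTerc-/-Puma+/+ against WT (3.86%) and 3 in the labelled double mutant against WT (Cdkn1a, Cdkn2a and Cdkn2b; 5.45%). They were 1 in G3 mTerc-/-Puma+/+ against Puma-/- (Cdkn1a; 17.1%), 2 in the labelled double mutant against Puma-/- (Cdkn1a and Cdkn2a; 8.42%) and 3 between the groups without telomerase (Cdkn1a, Cdkn2a and Cdkn2b; 6.22%). The interaction gave 2 (Cdkn1a and Cdkn2d; 4.93%), the average over Puma 2 (Cdkn1a and Cdkn2a; 7.76%) and any genotype difference 3 (Cdkn1a, Cdkn2a and Cdkn2b; 11.4%). The comparisons share libraries, so these counts are not separate evidence. The median log2 fold change of the 7 members was -0.26, -0.10 and 0.0013 against WT in the order just given, 0.09 and 0.26 against Puma-/-, 0.17 between the groups without telomerase, 0.44 for the interaction and 0.05 averaged over Puma, and medians over all genes lay between -0.015 and 0.018.

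**Figure D2:**
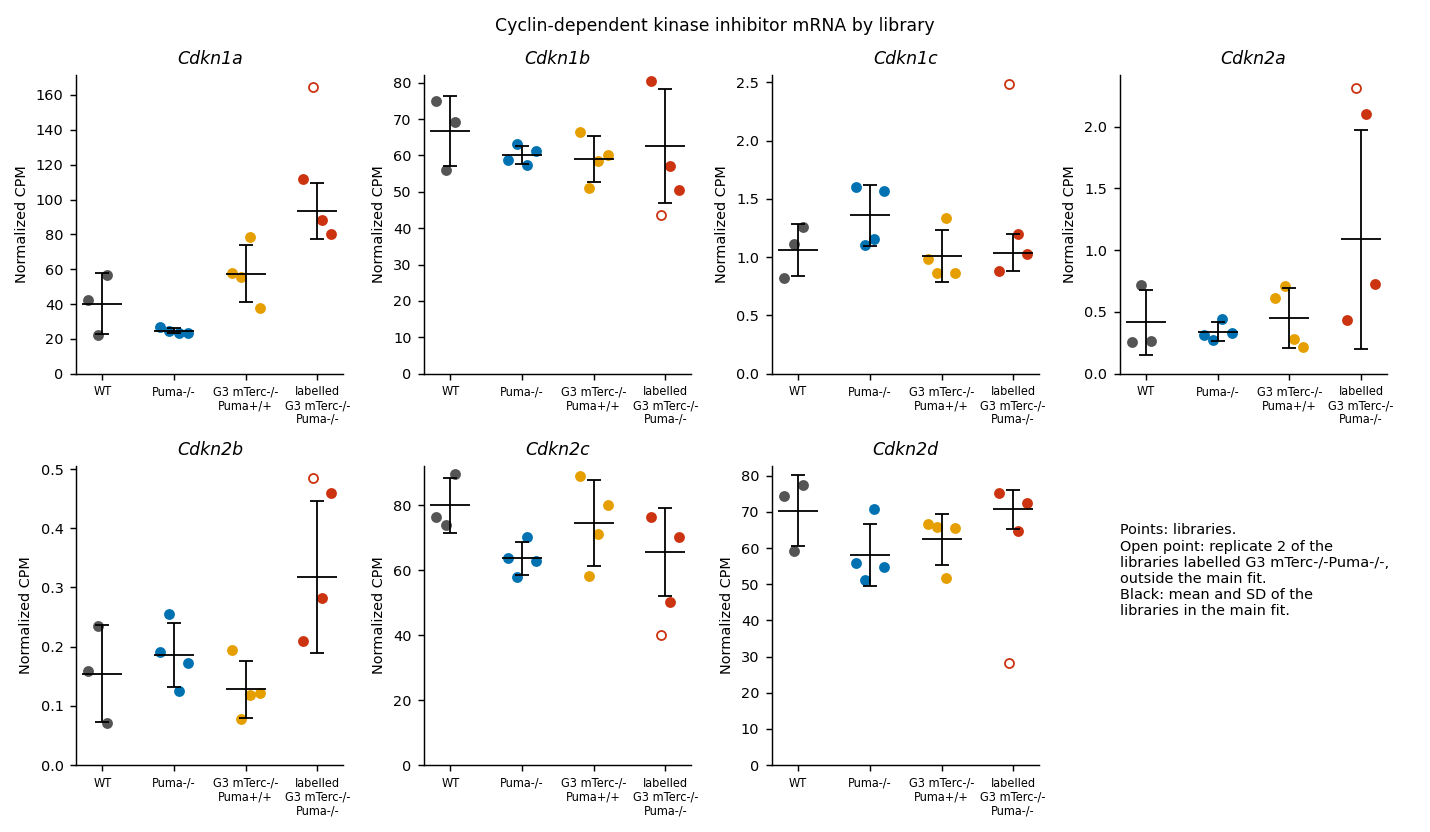
Normalized CPM of each inhibitor by genotype label, 1 point per library, with the mean and SD of the 14 fitted libraries in black and replicate 2 of the labelled G3 mTerc-/-Puma-/- group as an open point. Cdkn1a in the labelled double mutant (80.4 to 165 CPM) lies above every other library (22.2 to 78.2 CPM).

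Cdkn1a encodes p21, which binds cyclin-kinase complexes and the replication clamp PCNA, and lies on the plus strand at chr17:29090976-29100727 (GRCm38). A p53-bound element upstream of the gene is textbook knowledge, so the windows before its starts in RefSeq (GRCm38.p6, 250 bases ending just before the annotated start, plus strand) are shown here. Capitals mark the p53-type core, CATG, any 6 bases and CATG again, which reads the same on both strands, in the upstream window at chr17:29090729-29090978, and the GC box GGGCGG, searched on both strands, in the window at chr17:29093519-29093768.
Cdkn1a upstream start: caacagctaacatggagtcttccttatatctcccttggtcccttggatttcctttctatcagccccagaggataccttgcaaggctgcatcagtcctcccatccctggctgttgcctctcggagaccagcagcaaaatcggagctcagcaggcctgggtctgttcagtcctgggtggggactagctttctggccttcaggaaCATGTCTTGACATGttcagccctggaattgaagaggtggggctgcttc
Cdkn1a downstream start: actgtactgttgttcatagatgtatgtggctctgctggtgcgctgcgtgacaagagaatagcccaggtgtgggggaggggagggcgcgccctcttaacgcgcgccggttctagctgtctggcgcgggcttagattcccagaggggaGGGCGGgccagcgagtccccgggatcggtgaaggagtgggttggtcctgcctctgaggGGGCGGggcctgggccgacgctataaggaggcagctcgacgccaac

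The core began 48 bases before the upstream start. It was present in 1 of the 9 windows of the 6 members with an entry, and in 0.490% of 32851 windows of all genes. GC boxes were present in 5 of the 9 windows and in 32.7% of all windows, and the TATA box TATAAA in 0 of the 9 and in 12.4%. A match of these letters is a description of the sequence and no measurement of binding.

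In WT, Cdkn1a stood at 42.1, 22.2 and 56.6 CPM. In Puma-/- it stood at 26.7, 24.7, 23.6 and 23.6 CPM, in G3 mTerc-/-Puma+/+ at 58.0, 55.7, 78.2 and 37.8 CPM, and in the labelled double mutant at 111, 165, 88.2 and 80.4 CPM. The Puma-/- libraries lay closest together, the WT libraries lay on either side of them, and all 4 libraries of the labelled double mutant, replicate 2 highest, lay above every other library. The G3 mTerc-/-Puma+/+ libraries overlapped WT and lay above all Puma-/- libraries.

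By edgeR over 14 libraries, Cdkn1a was 3.74-fold higher in the labelled double mutant than in Puma-/- (log2 1.90, SE 0.26, adjusted p = 0.00594), and 4.49-fold higher over 15 libraries. Averaged over Puma, the groups without telomerase were 2.31-fold above those with it (log2 1.21, SE 0.19, edgeR adjusted p = 0.0167, and 0.0163 over 15 libraries). G3 mTerc-/-Puma+/+ was 2.31-fold above Puma-/- (log2 1.21, SE 0.25, edgeR adjusted p = 0.0453), with an edgeR adjusted p of 0.115 over 15 libraries. The call against Puma-/- in the labelled double mutant held in every alternative fit, at edgeR adjusted p of 0.0350 or lower when any 1 library was left out. The averaged call was lost only without WT replicate 1, at an edgeR adjusted p of 0.0532. The call of G3 mTerc-/-Puma+/+ against Puma-/- was lost in 11 of 14 such fits, and held only without WT replicate 2, WT replicate 3 or G3 mTerc-/-Puma+/+ replicate 4, with edgeR adjusted p between 0.0182 and 0.124.

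Against WT, Cdkn1a passed the edgeR test in no group. The labelled double mutant was 2.31-fold above WT (log2 1.21, 95% interval 0.59 to 1.82, edgeR adjusted p = 0.325). G3 mTerc-/-Puma+/+ was 1.43-fold above WT (log2 0.51, interval -0.06 to 1.09, edgeR adjusted p = 0.998), and Puma-/- was at 0.617 of the WT level (log2 -0.70, interval -1.26 to -0.13, edgeR adjusted p = 0.426). WT replicate 2, at 22.2 CPM, lay below all Puma-/- libraries. Without it the log2 difference of G3 mTerc-/-Puma+/+ from WT was 0.22, without WT replicate 3 it was 0.84, and none of the 14 fits with a library left out called it.

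The question whether telomerase loss moved Cdkn1a by unequal amounts with and without Puma was put to the interaction term. On the log2 scale the mTerc difference was 1.90 against the Puma-/- baseline and 0.51 against the WT baseline, and their difference was 1.39 (SE 0.37, 95% interval 0.59 to 2.19). The edgeR unadjusted p was 0.00226 and the adjusted p 0.590, and DESeq2 gave an adjusted p of 0.0491. The value rests on all 4 groups and on the label of the double mutant. Between the groups without telomerase, Cdkn1a was 1.62-fold higher in the labelled double mutant (log2 0.69, 95% interval 0.13 to 1.26, edgeR adjusted p = 0.629), and 1.94-fold higher over 15 libraries (edgeR adjusted p = 0.282). DESeq2 put the labelled double mutant against WT at an adjusted p of 0.00741.

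**Figure D3:**
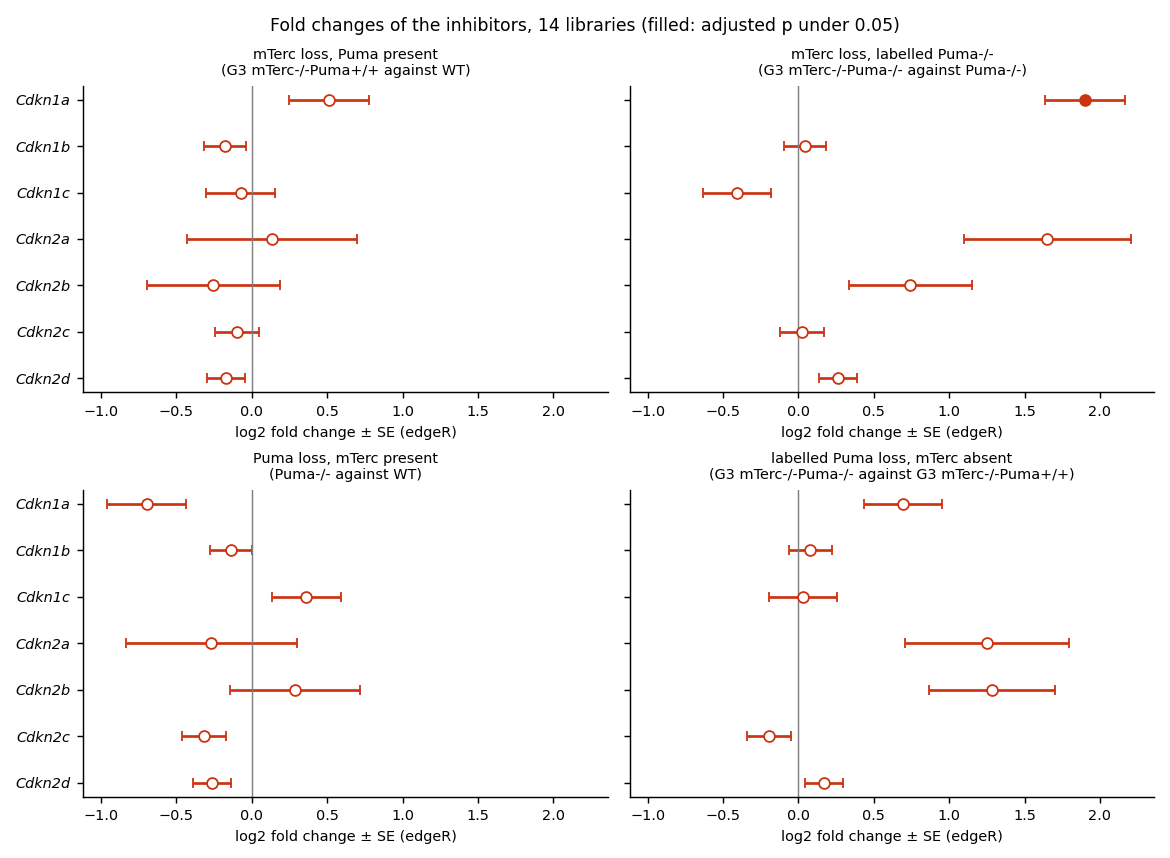
Log2 fold change ± SE (edgeR, 14 libraries) of each inhibitor for the mTerc difference with and without Puma (upper panels) and the Puma difference with and without mTerc (lower panels), with the Puma status of the doubly mutant group as labelled. The single filled point is Cdkn1a at 1.90 in the upper right panel, and Cdkn2a and Cdkn2b have the widest SEs.

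Tests of single values were run on the levels. The groups did not overlap for Cdkn1a in 4 of 6 pairwise comparisons over 14 libraries, all but Puma-/- and G3 mTerc-/-Puma+/+ against WT. The exact permutation test gave a two-sided p of 0.0286 for either G3 mTerc-/- group against Puma-/-, the smallest its design allows, or 0.3 after Benjamini-Hochberg adjustment over 42 such tests. Over all 7 members, 6 of the 42 pairs did not overlap. Per comparison these were 1 member each in Puma-/- against WT (Cdkn2c, where 10% of all genes did not overlap), the labelled double mutant against WT (8.5%), G3 mTerc-/-Puma+/+ against Puma-/- (11.2%) and the labelled double mutant against Puma-/- (9.7%). There were 2 between the groups without telomerase (Cdkn1a and Cdkn2b, 5.53%) and 0 in G3 mTerc-/-Puma+/+ against WT (4.15%). A count of 1 in 7 is near these shares of all genes.

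The part of Cdkn1a in the family's summed level was read per kilobase. On that scale, the 7 members summed to 76.0 to 126 CPM in the 15 libraries. Cdkn1a made up 7.26% to 9.31% of that sum in Puma-/-, 7.36% to 13.9% in WT, 11.1% to 23.1% in G3 mTerc-/-Puma+/+ and 21.1% to 50.2% in the labelled double mutant, the highest being replicate 2. Cdkn2d, the leading member elsewhere, made up 42.9% to 49.2% in the groups with telomerase and 19.5% in that replicate.

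Markers of other cell types differed between the same groups. The summed level of 8 megakaryocyte markers was 339 to 563 CPM in Puma-/- and 140 to 302 CPM in the other groups. All 8 had negative differences in the averaged mTerc comparison, and 3 of the 8 were called lower (Pf4, Gp9 and Gp1bb, proteins of platelets and their precursors). The 8 B cell markers summed to 38.1 to 49.7 CPM in G3 mTerc-/-Puma+/+ and to 63.5 to 129 CPM in the 3 fitted libraries of the labelled double mutant, with Igll1, a part of the pre-B cell receptor, among those called higher in the latter over 14 libraries (edgeR adjusted p = 0.0393, and 0.191 over 15). The 8 macrophage markers summed to 87.4 to 187 CPM and 179 to 283 CPM in the same groups, ranges that overlap, and none was called. All 12 erythroid markers were higher in the labelled double mutant than in Puma-/- and in G3 mTerc-/-Puma+/+ (median log2 1.40 and 1.15), with none called. The 14 stem cell markers summed to 301 to 363 CPM in Puma-/- and to 212 to 273 CPM in the other fitted libraries. No marker of these lists was at 0 in every fitted library of a group, and the part of these cells in the Cdkn1a differences was not tested. With Xist as a covariate for sex, Cdkn1a kept its call against Puma-/- in the labelled double mutant and in the averaged comparison. It lost the call in G3 mTerc-/-Puma+/+ against Puma-/- (edgeR adjusted p = 0.223). The Xist ranges of these last groups did not overlap, so sex and genotype cannot be told apart there.

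**Figure D4:**
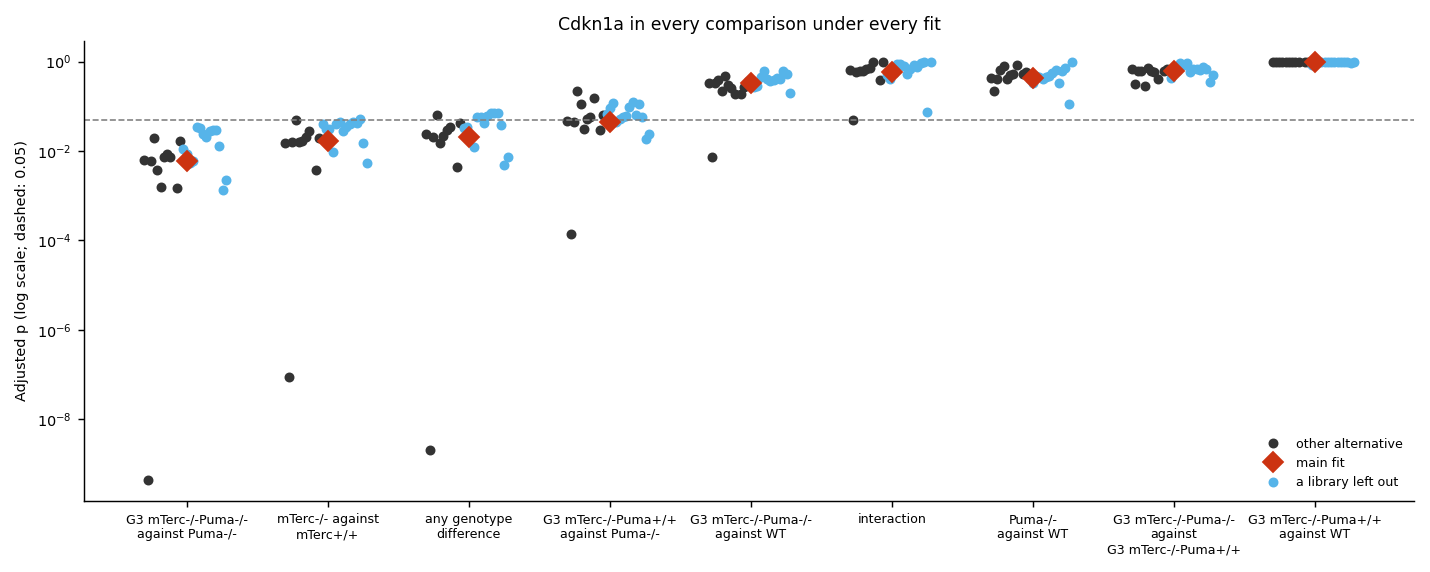
Adjusted p of Cdkn1a (log scale, dashed line at 0.05) in each comparison, as a diamond for the fit reported here and as points for each alternative fit and each fit with a library left out. The labelled double mutant against Puma-/- stays below the line in every fit, and G3 mTerc-/-Puma+/+ against Puma-/- (0.0453) has fits on either side.

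The other CIP/KIP genes were called in no comparison. Cdkn1b, the p27 gene at chr6:134920401-134925513, stood at 74.9, 55.98 and 69.3 CPM in WT and at 58.6, 63.1, 57.5 and 61.3 CPM in Puma-/-. It stood at 66.4, 51.1, 58.5 and 60.2 CPM in G3 mTerc-/-Puma+/+ and at 80.4, 43.6, 57.2 and 50.5 CPM in the labelled double mutant. The groups overlapped in every pair, and the labelled double mutants held both the highest and the lowest library. The mTerc difference averaged over Puma was -0.07 on the log2 scale (95% interval -0.28 to 0.15), so a change of the size seen for Cdkn1a lay outside the interval for Cdkn1b.

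Cdkn1c, the imprinted p57 gene at chr7:143458339-143461050, was scarce, with 83 to 292 counts a library. It stood at 0.821, 1.11 and 1.26 CPM in WT, at 1.60, 1.10, 1.16 and 1.57 CPM in Puma-/- and at 0.984, 0.861, 1.34 and 0.862 CPM in G3 mTerc-/-Puma+/+. In the labelled double mutant it stood at 0.883, 2.48, 1.20 and 1.03 CPM, and replicate 2 was the highest of all. Averaged over Puma the mTerc difference was -0.24 (95% interval -0.59 to 0.10) over 14 libraries and -0.019 over 15. Of its exonic bases 30.7% also lie in the antisense gene Gm44732, and of those of Cdkn1a 7.68% lie in an opposite-strand transcript. The libraries were stranded, but how strand entered the counting is not given in the sources used here, so reads of such partners could be mixed.

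The scarce INK4 genes Cdkn2a and Cdkn2b lie side by side on the minus strand of chromosome 4, at chr4:89274471-89294653 and chr4:89306299-89311039. The gap between them is 11646 bases. Gene-level counts cannot separate p16INK4a from p19ARF, so the sequences before their separate starts are shown together with that of Cdkn2b (GRCm38.p6, minus strand, 250 bases, GC boxes in capitals). They lie at chr4:89294620-89294869 for the distal Cdkn2a start, at chr4:89282193-89282442 for the proximal one and at chr4:89311033-89311282 for Cdkn2b.
Cdkn2a distal start: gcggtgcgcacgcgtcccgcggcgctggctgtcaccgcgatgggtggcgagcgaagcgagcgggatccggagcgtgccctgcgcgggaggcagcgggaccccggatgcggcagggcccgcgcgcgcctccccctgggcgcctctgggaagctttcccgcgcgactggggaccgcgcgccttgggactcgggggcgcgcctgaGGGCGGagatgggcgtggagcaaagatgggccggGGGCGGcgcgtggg
Cdkn2a proximal start: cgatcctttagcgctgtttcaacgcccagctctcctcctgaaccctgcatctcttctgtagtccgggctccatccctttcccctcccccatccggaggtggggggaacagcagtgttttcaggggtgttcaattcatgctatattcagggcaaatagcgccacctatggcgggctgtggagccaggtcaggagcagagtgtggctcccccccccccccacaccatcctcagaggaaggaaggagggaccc
Cdkn2b start: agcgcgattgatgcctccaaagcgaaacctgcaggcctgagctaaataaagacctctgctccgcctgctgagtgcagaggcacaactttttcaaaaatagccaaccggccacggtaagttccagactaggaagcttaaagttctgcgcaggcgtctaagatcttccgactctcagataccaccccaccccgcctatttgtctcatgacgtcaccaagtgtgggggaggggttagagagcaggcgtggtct

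The window of the distal Cdkn2a start was 78.4% G or C with 40 CpG dinucleotides and 2 GC boxes. The proximal Cdkn2a window was 60.0% G or C with 7 CpGs and the Cdkn2b window 53.6% with 12, and neither held the GC box in these letters. Expression from each Cdkn2a start was not measured here.

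Cdkn2a stood at 0.257, 0.721 and 0.266 CPM in WT and at 0.317, 0.273, 0.446 and 0.327 CPM in Puma-/-. It stood at 0.611, 0.706, 0.277 and 0.215 CPM in G3 mTerc-/-Puma+/+ and at 0.432, 2.31, 2.10 and 0.729 CPM in the labelled double mutant. Replicates 2 and 3 of that label, with 272 and 238 counts against 23 to 92 in the other 13 libraries, carried the high values, and replicate 1 lay inside the range of every other group. Against Puma-/- the labelled double mutant was at log2 1.65 (SE 0.55, edgeR unadjusted p = 0.00999, adjusted p = 0.375) over 14 libraries and at 2.02 over 15 (edgeR adjusted p = 0.233). Against WT it was at 1.38 (edgeR adjusted p = 0.856) and against G3 mTerc-/-Puma+/+ at 1.25 (edgeR adjusted p = 0.748). Without replicate 3 of that label, these 3 values were 0.74, 0.47 and 0.34. The mTerc difference averaged over Puma was 0.89 (95% interval 0.04 to 1.75, edgeR adjusted p = 0.611) and lay between 0.44 (without replicate 3 of the labelled double mutant) and 1.22 when a library was left out.

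Cdkn2b had 8 to 58 counts a library. It stood at 0.158, 0.234 and 0.0710 CPM in WT and at 0.192, 0.256, 0.125 and 0.173 CPM in Puma-/-. In G3 mTerc-/-Puma+/+ it stood at 0.194, 0.0774, 0.118 and 0.122 CPM, and in the labelled double mutant at 0.210, 0.485, 0.282 and 0.460 CPM. All 4 libraries of the latter label lay above all 4 of the former. The difference between these groups was 1.28 on the log2 scale (SE 0.42, edgeR unadjusted p = 0.00835, adjusted p = 0.461), and the exact permutation test gave p = 0.0286, the smallest it allows, or 0.3 after adjustment over the 42 tests. Over 15 libraries the log2 difference was 1.47 (edgeR adjusted p = 0.246).

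Set side by side, Cdkn2a and Cdkn2b were both highest in the labelled double mutant, but not in the same order. Replicate 3 lay above replicate 4 for Cdkn2a and below it for Cdkn2b. Pearson's r between their log2 CPM was 0.44 over 14 libraries, 0.18 after the genotype means were removed and 0.60 over 15 libraries, a description of libraries that share depth and composition. The macrophage marker sum reached 342 CPM in replicate 2 of that label against 87.4 to 283 CPM in the other libraries. Genes of that list went opposite ways in replicate 2, where Cd163 was lowest (4.21 CPM) and Slc40a1 highest (59.7 CPM) of all libraries. The part of macrophages in these values was not tested.

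**Figure D5:**
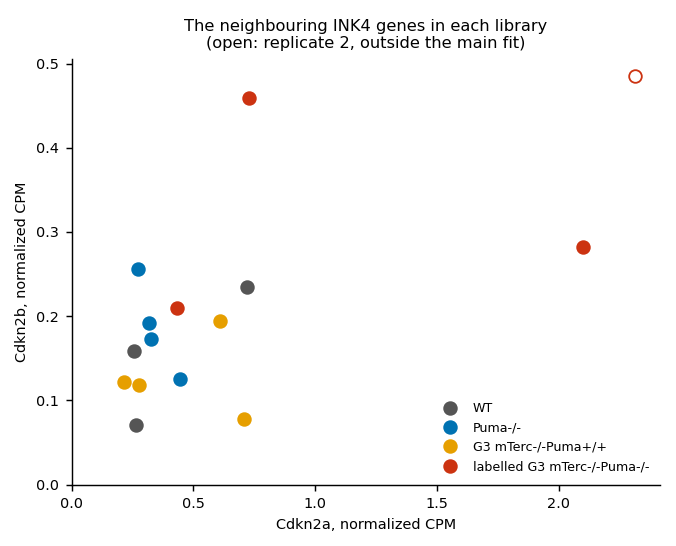
Normalized CPM of Cdkn2a (x axis) and Cdkn2b (y axis) in each of 15 libraries, coloured by genotype label, with replicate 2 of the labelled G3 mTerc-/-Puma-/- group as an open point. Libraries of the other labels lie at or below 0.721 CPM for Cdkn2a and 0.256 CPM for Cdkn2b, and 3 libraries of that label lie above both.

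The abundant INK4 genes Cdkn2c and Cdkn2d showed no call in any comparison. Cdkn2c, the p18 gene at chr4:109660876-109667189, stood at 76.3, 74.0 and 89.7 CPM in WT and at 63.8, 58.1, 70.3 and 62.8 CPM in Puma-/-. It stood at 89.1, 58.2, 71.2 and 80.2 CPM in G3 mTerc-/-Puma+/+ and at 76.3, 40.0, 50.3 and 70.3 CPM in the labelled double mutant. All Puma-/- libraries lay below all WT libraries, with a log2 difference of -0.32 (95% interval -0.63 to -0.0038, edgeR adjusted p = 0.488) and an exact permutation p of 0.0286, the smallest its design allows, or 0.3 after adjustment over the 42 tests. Averaged over Puma, the mTerc difference was -0.04 (interval -0.26 to 0.18).

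Cdkn2d, the p19INK4d gene at chr9:21288410-21291407, stood at 74.3, 59.2 and 77.5 CPM in WT and at 55.8, 51.3, 70.7 and 54.7 CPM in Puma-/-. It stood at 66.7, 65.7, 51.8 and 65.4 CPM in G3 mTerc-/-Puma+/+ and at 75.1, 28.3, 64.7 and 72.4 CPM in the labelled double mutant. Replicate 2 of that label was the lowest of all libraries for Cdkn1b, Cdkn2c and Cdkn2d, as it was the highest for Cdkn1a, Cdkn1c, Cdkn2a and Cdkn2b. The interaction for Cdkn2d was 0.44 on the log2 scale over 14 libraries (95% interval 0.05 to 0.82, edgeR adjusted p = 0.942) and 0.21 over 15. The averaged mTerc difference was 0.05 (interval -0.15 to 0.24), and changed sign to -0.07 over 15 libraries.

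The kinases, cyclins and brakes around the inhibitors were counted in lists. Of 12 tested CDK and cyclin genes, 3 were called higher in G3 mTerc-/-Puma+/+ than in Puma-/-, namely the E-type cyclins Ccne1 and Ccne2 and the mitotic cyclin Ccnb1, and 0 were lower, beside 0.801% of all genes called there. Ccne1 stood at 38.6 ± 3.96 CPM (SD, n = 4) against 27.5 ± 1.09 (n = 4), Ccne2 at 30.2 ± 2.15 against 21.6 ± 1.53, and Ccnb1 at 123 ± 16.3 against 90.2 ± 3.57, with edgeR adjusted p of 0.0429, 0.0287 and 0.0431. The median log2 difference of the list was 0.14, beside -0.00049 for all genes. In the labelled double mutant against Puma-/-, 0 of these 12 were called by edgeR (4 at an unadjusted p of 0.05), with a median of 0.13.

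Genes of cell division were counted next. Of 20 proliferation genes, all 20 had positive differences in G3 mTerc-/-Puma+/+ against Puma-/- (median 0.21) and 1, the checkpoint kinase gene Bub1, was called, at 96.3 ± 9.999 CPM against 68.6 ± 4.13 (SD, n = 4 each, edgeR adjusted p = 0.0410). Their sum was 5298 to 5660 CPM in Puma-/- and 5749 to 6777 CPM in the other fitted libraries. It was 4912 CPM in replicate 2 of the labelled double mutant, the lowest sum of all 15 libraries. Cdkn1a was highest in that library. It stood at 23.6 to 26.7 CPM in Puma-/-, whose sums were the lowest of the fitted libraries. A link between Cdkn1a and these sums was not tested. Of 14 genes of inhibitor degradation, which hold ubiquitin ligase parts for p21 and p27, 1 was called, Cul4b, at 52.96 ± 3.02 against 36.9 ± 3.06 CPM (edgeR adjusted p = 0.0379), with a list median of 0.17. All 5 of these calls were lost with Xist as a covariate (edgeR adjusted p from 0.150 for Ccne2 to 0.236 for Ccnb1) and over 15 libraries (from 0.0792 for Ccnb1 to 0.240 for Cul4b). The calls over all genes in that comparison went from 152 to 18 and 24 in these fits. Puma-/- libraries were female by Xist while those of G3 mTerc-/-Puma+/+ were low in it. The Xist ranges of these groups did not overlap, so sex and genotype cannot be told apart in this comparison. With the covariate the log2 difference went from 0.48 to 0.44 for Bub1 and from 0.44 to 0.33 for Ccnb1.

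The lists on control of the inhibitors held no edgeR call in any of the 8 comparisons with a direction. In the averaged mTerc comparison, where all genes had a median log2 difference of 0.010, 18 genes of p53 and direct activators had a median of -0.021 and 17 pocket protein and E2F genes one of 0.020. The medians were -0.0087 for 17 polycomb repressors, -0.014 for 14 other repressors and 0.089 for 13 imprinted growth genes. At an unadjusted p of 0.05, edgeR passed 0 of the p53 list, 2 of the pocket protein list (E2f3 and Tfdp1), and 1 each of the last 3 (Suz12, Mycn and Igf2), beside 7.76% of all genes. Mdm2, which p53 induces and which restrains it, was at 0.11 (SE 0.05, edgeR adjusted p = 0.649).

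Cell type lists were read in the same averaged comparison. The megakaryocyte list had a median of -1.10 with 3 of 8 called lower, led by Pf4 at -1.31 (SE 0.21, edgeR adjusted p = 0.0167), and the stem cell list one of -0.25 with 1 of 14 called lower, Vwf at -1.04 (SE 0.17, edgeR adjusted p = 0.0167). Vwf is shared by platelet-biased stem cells and megakaryocytes. The average joins the mTerc differences with and without Puma. G3 mTerc-/-Puma+/+ against WT had medians of -0.27 for megakaryocyte and 0.0050 for stem cell genes, with 0 called. The labelled double mutant against Puma-/- had -1.81 and -0.63, with 5 and 1 called lower. Mean Vwf was 40.8 CPM for Puma-/- libraries, beside 16.9 for WT, 15.7 for G3 mTerc-/-Puma+/+ and 10.4 for the fitted labelled double mutant. Mean Pf4 was 79.9 CPM beside 34.2, 25.9 and 17.4 in that order. With Xist as a covariate none of the 4 genes called in the average passed, at edgeR adjusted p from 0.0736 (Vwf) to 0.180 (Gp1bb). Over 15 libraries Pf4 and Vwf passed and Gp9 and Gp1bb did not (edgeR adjusted p of 0.264 and 0.0570). In the averaged comparison no gene of the other lists was called. Their medians were 0.70 for 12 erythroid, 0.40 for 12 neutrophil and monocyte and 0.46 for 8 T and NK cell genes. They were 0.24 for 8 B cell, 0.015 for 8 macrophage and 0.13 for 9 stromal and endothelial genes. The 6 mast cell and basophil genes had a median of -0.53. The medians for the CDK and cyclin, proliferation and degradation lists were 0.087, 0.064 and 0.068, with 0 called.

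Genes beside the inhibitors on the chromosome were read as well. The nearest tested protein-coding neighbours of Cdkn1a were Srsf3, a splicing factor gene 47603 bases below, and Rab44, 13418 bases above, with averaged mTerc differences of 0.07 (SE 0.07) and -0.15 (SE 0.08) on the log2 scale. Mtap, the methylthioadenosine phosphorylase gene next to Cdkn2a, was at 0.14 (SE 0.10). No neighbour of any member was called by edgeR in any comparison, and apart from Cdkn2a and Cdkn2b themselves those with an unadjusted p under 0.05 in at least 1 comparison were Rab44, Mtap and Faf1.

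The genes whose log2 CPM was most like that of each member over 14 libraries were found among genes of at least 1 CPM on average. For Cdkn1a these were Hmcn2 (r = 0.89), Dglucy (0.87) and Slc19a2 (0.87), and after genotype means were removed r was 0.58, 0.62 and 0.58. With the 15th library Hmcn2 and Slc19a2 stood at 0.92 and 0.89 and Dglucy at 0.48. For Cdkn1b they were Klf10 (0.93), Snx30 and Map3k1, and for Cdkn1c Lpo (0.84), 1700096K18Rik and Afap1. For Cdkn2a they were Ctsd, Mgmt and Ift27 (0.81 each), and for Cdkn2b Ifi44 (0.88), Bicdl1 and Isg15. For Cdkn2c they were Nsl1 (0.95), Cdk2, the kinase that E-type cyclins bind (0.91), and Stx12, and for Cdkn2d Tpd52 (0.90), Pir and Emp3. With the 15th library r was 0.0087 for 1700096K18Rik, 0.44 for Afap1, 0.53 for Ift27 and 0.59 for Pir. It lay between 0.857 (Ifi44) and 0.966 (Nsl1) for the rest of those named for members other than Cdkn1a. With the genotype means removed, r for Klf10, Lpo, Nsl1 and Tpd52 was 0.93, 0.84, 0.93 and 0.89, so these pairs varied together within genotypes, whereas that of Hmcn2 with Cdkn1a was lower. All are descriptions of 14 libraries chosen from many genes.

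Among the members themselves, r over 14 libraries ranged from -0.56 (Cdkn1c with Cdkn2d) to 0.48 (Cdkn1b with Cdkn2c). With the 15th library, the same pairs stood at -0.81 and 0.67, and Cdkn2c with Cdkn2d went from 0.47 to 0.75, so the largest of these values rested on replicate 2 of the labelled double mutant.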

How the data were processed

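RNA from lineage-negative marrow cells was made into poly(A)-selected stranded libraries. Per the labels and the study's methods, the authors trimmed reads with Trimmomatic 0.38, aligned them to GRCm38 (mm10) and counted reads per gene with STAR 2.5.2b, and deposited whole-number counts per Ensembl gene. The annotation and the strand setting are not given in the sources used here. Symbols were taken from GENCODE vM21, and 563 of 45706 identifiers had none (0.061% to 0.071% of counts). From the deposited counts, one model over 4 groups was fitted in edgeR 4.0.16 (R 4.3.3) with filterByExpr, TMM scaling, the quasi-likelihood test and Benjamini-Hochberg adjustment over 18983 genes at 0.05. It used 14 libraries, without replicate 2 of G3 mTerc-/-Puma-/-. SEs are the log2 fold change over the root of F, and 95% intervals use the test's degrees of freedom. Displayed CPM are TMM-scaled over 15 libraries. Alternatives were all 15 libraries, other scalings and filters, DESeq2 1.42.0, limma-voom (limma 3.58.1), the replicate number as a block, Xist as a covariate, the compared groups alone and each library left out, and limma-voom on all 15 libraries was added after the data were seen. Named genes were the 7 members, Terc and Bbc3, the 3 genes most like each member, the nearest protein-coding neighbours, and list genes that passed in any comparison, or else up to 2 per list with the smallest p. The members and lists were chosen with earlier results of these data known. The fit was tested on simulated data. Same-numbered libraries did not deviate together (r from -0.25 to 0.18), so the replicate number is only an alternative. Values of 1 list gene are not reported here.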

Additional observations from a re-analysis of the deposited data

Results flagged for a closer look

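Cdkn2d in G3 mTerc-/-Puma+/+ had 1 library far from the rest of its group, replicate 3 at 51.8 CPM against 65.4 to 66.7 CPM in the other 3. Groups of 4 and a limit that chance passes about once in 20 groups were used, and 21 groups were examined.

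Replicate 2 of the labelled double mutant, which was not in the 14 fitted libraries, lay above all WT and Puma-/- libraries for 4 members. Cdkn1a stood at 165 CPM (22.2 to 56.6 in those controls), Cdkn1c at 2.48 (0.821 to 1.60), Cdkn2a at 2.31 (0.257 to 0.721) and Cdkn2b at 0.485 (0.0710 to 0.256). The same library held an erythroid marker sum of 2355 CPM and a macrophage marker sum of 342 CPM, each the highest of the 15. Its neutrophil and monocyte marker sum, 31359 CPM, was the highest as well. Within the macrophage list Cd163 was lowest there, at 4.21 CPM against 9.44 to 22.7 CPM elsewhere. Slc40a1 was highest, at 59.7 CPM against 14.6 to 35.5 CPM. The part of these cells in its values was not tested.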

How the results depend on the processing

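The count of called members was 1 (Cdkn1a) in the labelled double mutant against Puma-/- under every alternative. In G3 mTerc-/-Puma+/+ against Puma-/- it went from 1 to 0 with all 15 libraries, library size alone, limma-voom (14 or 15 libraries), the Xist covariate and the replicate block, where Cdkn1a had an edgeR adjusted p of 0.0630 beside 0.0453. The replicate block changed no other count of called members. With DESeq2 it went from 0 to 1 in the labelled double mutant against WT and in the interaction, and with the Xist covariate from 1 to 0 for any genotype difference. With 1 library left out, the count ranged from 0 to 1 for G3 mTerc-/-Puma+/+ against Puma-/-, for the averaged mTerc comparison (0 without WT replicate 1) and for any genotype difference (0 without any of the 4 Puma-/- libraries or replicates 1 or 3 of the labelled double mutant, with edgeR adjusted p from 0.00484 to 0.0720 over the 14 fits).

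Small averaged mTerc differences changed sign on the log2 scale. With 1 library left out, Cdkn1b ranged from -0.176 to 0.00151 (without replicate 4 of the labelled double mutant). Cdkn2c was at 0.0215 with the Xist covariate and from -0.0976 to 0.041 with 1 library left out, at 0.0086 without WT replicate 3, 0.00864 without G3 mTerc-/-Puma+/+ replicate 2 and 0.041 without replicate 3 of the labelled double mutant. Cdkn2d was at -0.0684 with 15 libraries, -0.108 with limma-voom on 15 and from -0.00868 (without WT replicate 2) to 0.0957 with 1 library left out. The cause of these changes was not tested.

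Over all genes, the calls and their range under the alternatives other than leaving out 1 library, the fit of the compared groups alone included where it applies, were 15 (9 to 136) in Puma-/- against WT, 7 (3 to 46) in G3 mTerc-/-Puma+/+ against WT, 12 (5 to 91) in the labelled double mutant against WT, 152 (15 to 996) and 58 (21 to 287) for these groups against Puma-/-, 14 (2 to 172) between them, 10 (5 to 64) for the interaction, 50 (17 to 252) averaged over Puma and 85 (33 to 836) for any difference. The highest were those of DESeq2. Cdkn2b, with 8 to 58 counts a library, and Cdkn2a, with 23 to 272, had the widest SEs of the 7 members, 0.41 and 0.55 in the labelled double mutant against Puma-/-.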
